A study of Canis lupus familiaris with 4 samples.

Results

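The markers described here are 48 genes that mark neural stem cells, astrocytes, oligodendrocytes and neurons, or that belong to the Notch and ID pathways that control their formation. They were chosen by name with earlier results of these data known. Their shares set against those of all genes are thus not independent of the data. A gene entered where a probe set of the array annotation carried its symbol alone. Of the 48 genes, 41 had such a probe set, out of 15115 genes on the array. SOX4, SOX11, DLL1, HES1, ID2, OLIG1 and OLIG2 were not listed under their own symbol and were not analysed here.

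The arrays were made from 4 cultured canine glioblastoma lines, 1 array per line. J3T-1 and J3T-2 derive from one parental canine tumor line and are labelled as expressing high and low annexin A2 (ANXA2), a calcium-dependent membrane-binding protein. In J3T-1shA, ANXA2 was knocked down in J3T-1, and in J3T-2A, ANXA2 was overexpressed in J3T-2. All 4 lines were grown in the same serum-containing medium. Whether J3T-1shA and J3T-2A are single clones, and whether the untreated lines carried a control vector, is not given in the sources used here. Each pair of arrays compares 2 lines without replicates, so no difference carries a test.

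Neural stem cells depend on transcription factors such as SOX2, on the self-renewal gene BMI1 and on Notch signaling, in which ligands on one cell activate receptors on the next and switch on the HES and HEY repressors. ID proteins bind the partners of bHLH factors and so hold back neuronal and oligodendroglial differentiation. Astrocytes are known by glutamate transporters, glutamine synthetase and aquaporin 4, oligodendrocytes by SOX10, OLIG factors and myelin proteins, and neurons by cytoskeletal and synaptic vesicle proteins. Glioma cells often carry parts of several of these programs at once.

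The values are MAS 5.0 signals, linear intensities scaled by array. For each gene the brightest probe set, by its mean over the 4 arrays, was used, and a signal of 250 was taken as the limit for a measured gene. The array medians over all probe sets were 101.8 to 106.5, and the highest signals were 44434.6 to 46646.0. ANXA2 itself did not separate the lines: its brightest probe set gave 28656.0 in J3T-1, 30092.9 in J3T-1shA, 30102.5 in J3T-2 and 28774.6 in J3T-2A. It therefore does not check the labels, and each line name below stands for the array labelled so. A signal under 250 does not show that a gene was silent, since ACTB, the cytoplasmic actin of most cells, had 48.7 to 96.7 on these arrays. GAPDH, also a gene of most cells, had 355.9 in J3T-1, 37.2 in J3T-1shA, 224.6 in J3T-2 and 113.1 in J3T-2A. Such a gene thus passed the limit on the J3T-1 array alone and differed widely between arrays.

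Of the 41 lineage markers, 25 stayed under the limit on every array, among them AQP4, MBP, MOG, SYP, SNAP25 and RBFOX3, whereas GLUL, CNP, TUBB3 and SNCG reached it on all 4. On all 4 arrays, 12 of the 41 members reached 250 (29.3%, against 39.0% of all genes). These were SOX2, BMI1, ID1, ID3, SLC1A3, GLUL, CNP, TUBB3, STMN1, SNCG, GAP43 and SERPINI1. MAP2 and PHYHIPL reached it on 3 arrays, and NCAM1 and GPM6A on 2. The other 25 members (61.0%, against 52.1% of all genes) reached it on no array, and none of their further probe sets did either. By array, 15 members reached the limit in J3T-1, 16 in J3T-1shA, 12 in J3T-2 and 15 in J3T-2A. These counts were 36.6%, 39.0%, 29.3% and 36.6% of the members, against 43.1%, 43.4%, 43.7% and 42.9% of all genes. These shares were near those of all genes in J3T-1, J3T-1shA and J3T-2A. MAP2, PHYHIPL, NCAM1 and GPM6A were the 4 measured members under the limit in J3T-2. In a culture, fewer cells of a type and less RNA per cell cannot be told apart. Nearest to the limit, ALDH1L1 reached 225.9 and GPM6B 224.5 on their highest arrays, while MAP2 reached 368.8 and NCAM1 387.9.

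**Figure D1:**
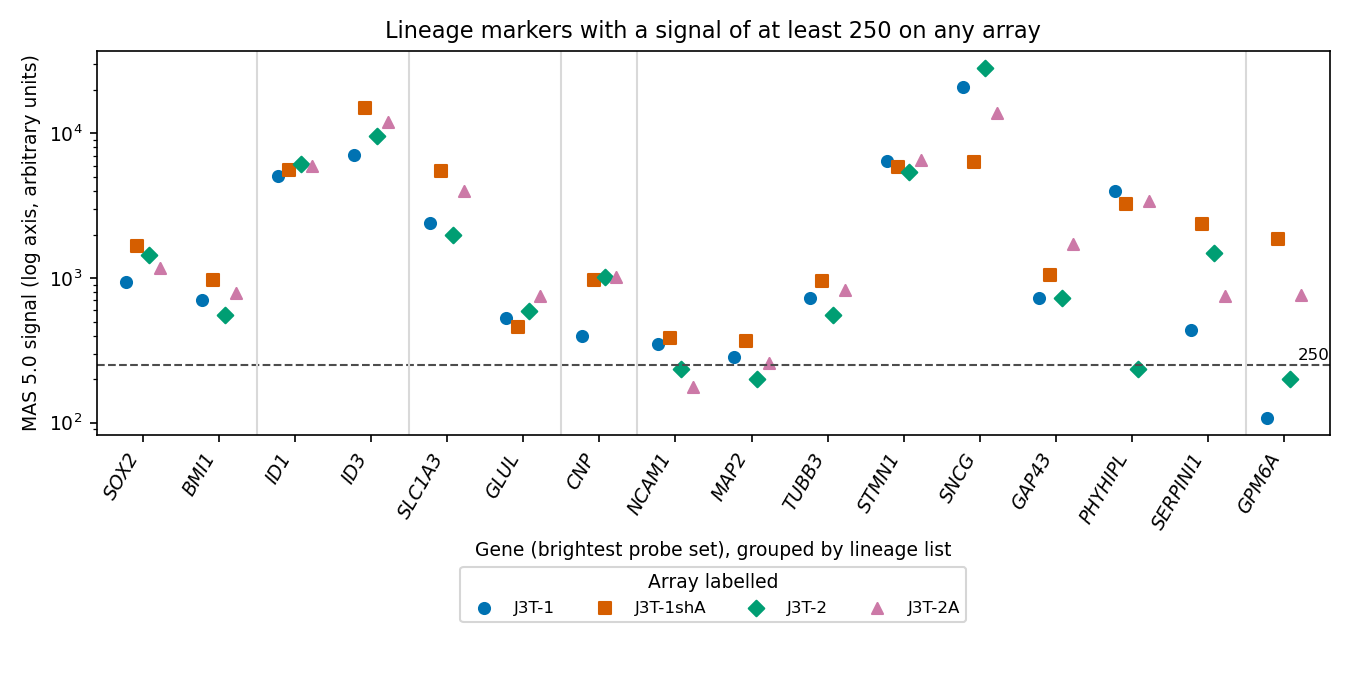
MAS 5.0 signals (log axis, arbitrary units) of the 16 lineage markers with at least 250 on any array, by the brightest probe set of each gene, with 1 point per array and the limit of 250 as a dashed line. J3T-1shA has the highest point for 9 of the 16 genes, and PHYHIPL lies under the limit in J3T-2 alone; heights of different genes are not comparable.

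The stem cell factors SOX2 and BMI1 were measured in all lines and differed by less than 2-fold. SOX2, the core neural stem cell transcription factor, had signals of 936.8 in J3T-1, 1662.5 in J3T-1shA, 1454.3 in J3T-2 and 1175.4 in J3T-2A. It was thus lowest in J3T-1 and highest in its knockdown line, a log2 ratio of -0.83 for J3T-1 over J3T-1shA. The log2 ratio was -0.31 for J3T-2A over J3T-2, so the line labelled ANXA2-high had the lower SOX2 signal in each pair. BMI1, a Polycomb protein that represses cell cycle inhibitors, had 700.6, 975.1, 552.2 and 790.3 in the same order, with log2 ratios of -0.48 and 0.52. As a yardstick, the difference in log2 ratio between the brightest and the second probe set of a gene, where both were at the limit, had an SD of 0.29 in the J3T-2A and J3T-2 pair (3716 genes). It was 0.37 in the J3T-1 and J3T-1shA pair (3760 genes) and 0.37 in the J3T-1 and J3T-2 pair (3759 genes). This spread comes from different probes on the same RNA, so differences from culture to culture are not in it. SOX9, a factor of glial progenitors, had 87.5 to 177.9 and PROM1, which encodes the stem cell surface protein CD133, had 29.3 to 40.7.

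Both ID genes with a probe set were bright. ID3 had signals of 7098.5 in J3T-1, 15010.2 in J3T-1shA, 9563.2 in J3T-2 and 12004.2 in J3T-2A. It was 2.11-fold lower in J3T-1 than in J3T-1shA and 1.26-fold higher in J3T-2A than in J3T-2. Its second probe set gave 3887.5, 9090.1, 6046.7 and 7326.1, the same order of the arrays. ID1 had 5072.5, 5581.0, 6163.5 and 5998.0, and its highest signal was 1.22-fold its lowest.

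No member of the Notch pathway reached the limit. The receptor genes NOTCH1 and NOTCH2 had 40.3 to 79.9 and 156.2 to 207.6, the ligand gene DLL3 had 9.1 to 15.7, and HEY1, a Notch target gene, had 6.7 to 78.8. Differences at this level were not read.

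Among astrocyte and radial glia genes, the glutamate transporter SLC1A3 and glutamine synthetase GLUL were measured, and the other 7 were not. SLC1A3, also known as GLAST, had signals of 2422.1 in J3T-1, 5505.5 in J3T-1shA, 1996.2 in J3T-2 and 3998.8 in J3T-2A. The arrays of the modified lines were thus the higher ones in each pair. SLC1A3 was 2.00-fold higher in J3T-2A than in J3T-2 and 2.27-fold lower in J3T-1 than in J3T-1shA, and it had no second probe set. The first of these ratios lay at the edge of 2-fold, with a log2 ratio of 0.98 after quantile normalization and 0.97 with a pseudocount of 80. GLUL, which turns glutamate into glutamine, had 526.1, 455.7, 587.5 and 752.0. Its log2 ratios were 0.21 in J3T-1 against J3T-1shA and 0.36 in J3T-2A against J3T-2. ALDH1L1, a folate enzyme of astrocytes, had 133.6 to 225.9, and FABP7, the fatty acid binding protein of radial glia, had 78.6 to 138.9. SLC1A2, a glutamate transporter of mature astrocytes, had 24.6 to 61.3, and the calcium-binding protein S100B had 12.7 to 33.6. The water channel AQP4 had 3.4 to 16.9. The brain proteoglycans BCAN and NCAN had 11.8 to 72.2 and 1.5 to 4.7.

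Of the oligodendrocyte lineage, CNP was the one member that reached the limit. CNP, a phosphodiesterase of myelin that many other cells also express, had signals of 396.9 in J3T-1, 977.2 in J3T-1shA, 1014.4 in J3T-2 and 1019.4 in J3T-2A. J3T-1 stood under the other lines, which lay close together. CNP was 2.46-fold lower in J3T-1 than in J3T-1shA and 2.56-fold lower than in J3T-2, with a log2 ratio of 0.01 for J3T-2A over J3T-2. The second CNP probe set gave 211.1, 545.6, 664.6 and 544.0, again lowest in J3T-1. The myelin genes MBP and MOG had 139.7 to 216.8 and 71.1 to 125.6. The lineage factors SOX10 and NKX2-2 had 14.3 to 55.3 and 79.4 to 136.0. CSPG4, the NG2 proteoglycan of progenitors, had 6.2 to 57.7.

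**Figure D2:**
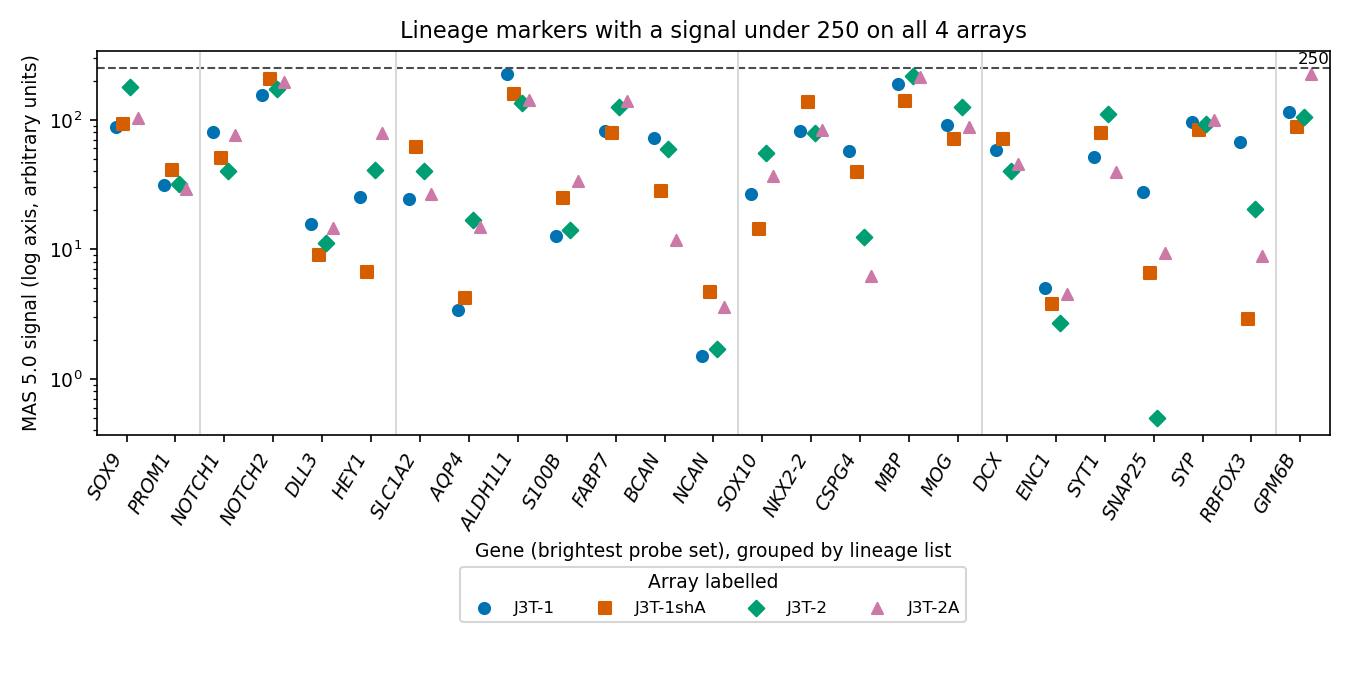
MAS 5.0 signals (log axis, arbitrary units) of the 25 lineage markers under 250 on all 4 arrays, by the brightest probe set of each gene, with 1 point per array and the limit of 250 as a dashed line. Their highest signals run from 4.7 for NCAN to 225.9 for ALDH1L1, and the spread between arrays is wide for the dimmest genes, such as SNAP25 (0.5 to 27.7).

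On the neuronal list, PHYHIPL, SERPINI1 and SNCG differed by 4.49-fold or more between the highest and the lowest line, whereas MAP2, STMN1 and the brightest probe set of TUBB3 stayed within 2-fold. PHYHIPL, a brain-enriched gene whose protein resembles a phytanoyl-CoA hydroxylase interacting protein, had signals of 3976.2 in J3T-1, 3232.7 in J3T-1shA, 235.9 in J3T-2 and 3409.2 in J3T-2A. J3T-2 stood alone under the limit, while the other lines were within 1.23-fold of each other. J3T-2A over J3T-2 gave a log2 ratio of 3.85, rank 3 from the highest of 6860 measured genes, and 13.6-fold if signals under 250 are set to 250. J3T-1 over J3T-2 gave 4.08, rank 7 of 6967. The next probe sets of PHYHIPL gave 1537.3, 1546.6, 117.1 and 1546.8, and 988.8, 1132.2, 122.7 and 1079.3, the same pattern. The dimmest PHYHIPL probe set had 80.1 to 154.6, lowest in J3T-2 as well.

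SERPINI1 encodes neuroserpin, an inhibitor of tissue plasminogen activator secreted by neurons. Its signals were 435.0 in J3T-1, 2376.6 in J3T-1shA, 1479.3 in J3T-2 and 756.9 in J3T-2A, so that the line labelled ANXA2-high was the lower one in each pair. SERPINI1 was 5.46-fold lower in J3T-1 than in J3T-1shA, rank 62 from the lowest of 6944 measured genes, and 1.95-fold lower in J3T-2A than in J3T-2. The second probe set gave 224.1, 631.1, 404.1 and 269.1, in the same order of the lines, with smaller log2 ratios of -1.49 and -0.59. Against J3T-2, J3T-1 had a log2 ratio of -1.77 by the brightest and -0.85 by the second probe set.

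SNCG encodes gamma-synuclein, a cytoplasmic protein of peripheral neurons that several tumors also express. It had signals of 21068.0 in J3T-1, 6295.7 in J3T-1shA, 28237.7 in J3T-2 and 13867.6 in J3T-2A. Both modified lines were under their parental lines. SNCG was 3.35-fold higher in J3T-1 than in J3T-1shA, rank 75 from the highest of 6944 genes, and 2.04-fold lower in J3T-2A than in J3T-2, a log2 ratio of -1.03 and of -0.97 after quantile normalization. The second and much dimmer probe set gave 314.7, 82.0, 693.8 and 167.4, in the same order of the arrays. Both modified lines were under the limit by that probe set, and with signals under 250 set to 250 it gave 1.26-fold in the knockdown pair and 2.78-fold in the overexpression pair.

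GAP43, a protein of growing axons, had signals of 727.0 in J3T-1, 1049.5 in J3T-1shA, 733.7 in J3T-2 and 1710.7 in J3T-2A. J3T-2A was the high array, 2.33-fold over J3T-2, whereas the second probe set gave 250.1 against 183.6, a log2 ratio of 0.45. NCAM1, the neural cell adhesion molecule, had 352.3 and 387.9 in J3T-1 and J3T-1shA and 234.9 and 175.2, under the limit, in J3T-2 and J3T-2A. The arrays of J3T-1 origin were thus the higher ones, whatever the ANXA2 label. The second NCAM1 probe set had the same split, with 312.1 and 359.9 against 49.5 and 22.5. The remaining 3 NCAM1 probe sets, under the limit throughout, were also higher in J3T-1 and J3T-1shA.

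TUBB3, the class III beta-tubulin of neurons, had 725.4, 958.8, 552.7 and 821.9. The modified line was the higher one in each pair, with log2 ratios of -0.40 in J3T-1 against J3T-1shA and 0.57 in J3T-2A against J3T-2. Its brightest probe set is of the kind that shares probes with other transcripts, and the second is of a kind that can match several transcripts as well. The second had 263.8, 591.4, 211.5 and 536.9. It gave log2 ratios of -1.16 and 1.34 and a 2.80-fold difference between its highest and lowest array. MAP2, a dendritic microtubule protein, had 286.6, 368.8, 199.9 and 259.3 and stayed within 2-fold in all comparisons. STMN1, a microtubule destabilizer of dividing cells, had 6488.2, 5819.5, 5422.0 and 6574.5, and its highest signal was 1.21-fold its lowest.

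The synaptic members, RBFOX3, DCX and ENC1 stayed under the limit. SYP and SYT1, both synaptic vesicle proteins, had 84.1 to 99.8 and 39.5 to 109.9, and SNAP25, of the fusion machinery, had 0.5 to 27.7. RBFOX3, which encodes the neuronal nuclear antigen NeuN, had 2.9 to 67.9. DCX, a microtubule protein of migrating neuroblasts, had 40.4 to 71.5, and ENC1, an actin-binding protein of the developing nervous system, had 2.7 to 5.0.

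The proteolipid genes GPM6A and GPM6B encode related membrane glycoproteins of neurons and glia, and GPM6A differed widely between the lines. It had 108.2 in J3T-1, 1862.2 in J3T-1shA, 200.8 in J3T-2 and 760.2 in J3T-2A. Both parental lines were under the limit and both modified lines over it. For J3T-1 over J3T-1shA the log2 ratio was -4.11, rank 17 from the lowest of 6944 genes, or 7.45-fold lower if signals under 250 are set to 250. For J3T-2A over J3T-2 it was 1.92, rank 26 from the highest of 6860 genes, or 3.04-fold with the same floor. The second probe set had 27.4, 304.4, 42.3 and 132.1, in the same order but over the limit in J3T-1shA alone, where it was 1.22-fold higher than J3T-1 with that floor, and the dimmest had 26.5 to 73.1, which was not in that order. GPM6B had 88.7 to 224.5.

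**Figure D3:**
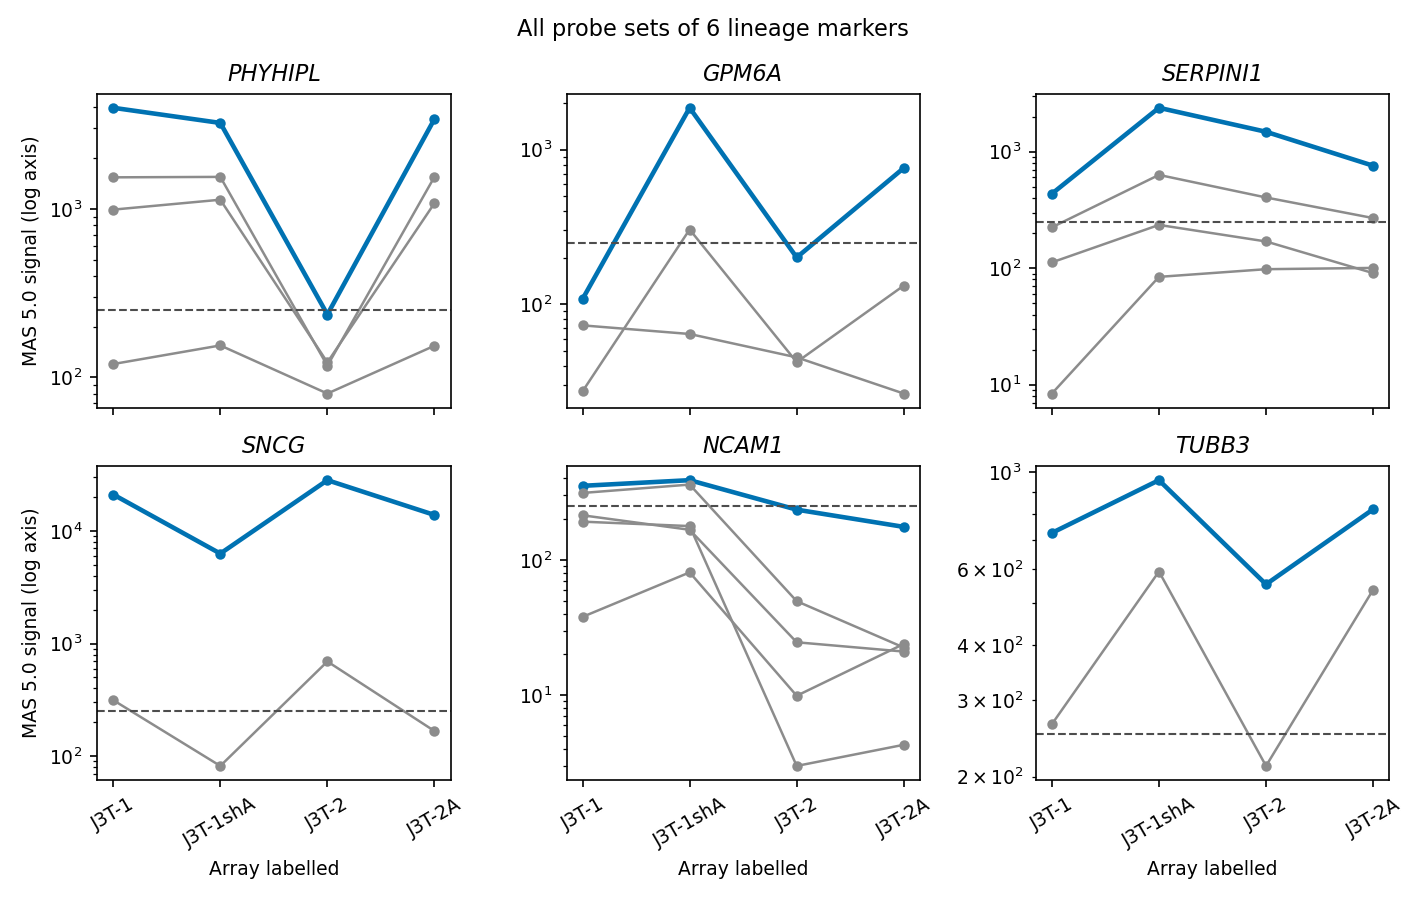
MAS 5.0 signals (log axis, arbitrary units, each panel with its own range) of every probe set of PHYHIPL, GPM6A, SERPINI1, SNCG, NCAM1 and TUBB3 on the 4 arrays, with the brightest probe set in blue, the others in grey and the limit of 250 dashed. All PHYHIPL probe sets are lowest in J3T-2 (235.9 by the brightest), both SNCG probe sets are lowest in J3T-1shA (6295.7 by the brightest), and all NCAM1 probe sets are higher in J3T-1 and J3T-1shA than in the other lines.

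More of the measured markers were higher than lower in J3T-2A against J3T-2, and the reverse held in J3T-1 against J3T-1shA. In J3T-2A over J3T-2, 15 members were measured, that is, reached 250 on the higher array. PHYHIPL, GPM6A, GAP43 and SLC1A3 were over 2-fold higher, 4 members or 26.7%, against 1.69% of 6860 genes. SNCG alone was over 2-fold lower, 6.67%, against 2.10%. The median log2 ratio of the members was 0.36, against 0.00 for all genes, and 11 of the 15 (73.3%) lay above 0, against 49.4% of all genes. PHYHIPL, GPM6A and MAP2 passed the limit only through J3T-2A, and NCAM1, with a log2 ratio of -0.42, was under it on both arrays. With no filter on signal, the median was 0.14. Quantile normalization took SLC1A3 and SNCG to within 2-fold and left 3 members over it. A second probe set was measured for 3 of these 5 genes and gave over 2-fold the same way for PHYHIPL and SNCG.

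In J3T-1 over J3T-1shA, 16 members were measured. GPM6A, SERPINI1, CNP, SLC1A3 and ID3 were over 2-fold lower, 5 members or 31.2%, against 4.26% of 6944 genes. SNCG was over 2-fold higher, 6.25%, against 3.80%. The median log2 ratio was -0.44, against 0.03 for all genes, and 12 of the 16 (75.0%) lay below 0, against 47.1% of all genes. GPM6A passed the limit only through J3T-1shA. A second probe set reached the limit for 5 of these 6 genes, all but SLC1A3, and was over 2-fold the same way for all 5. With signals under 250 set to 250, this held for 3 of them, ID3, CNP and SERPINI1, and the second probe sets of GPM6A and SNCG were within 2-fold.

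In J3T-1 over J3T-2, the comparison of the parental lines, 15 members were measured. PHYHIPL was over 2-fold higher, 6.67%, against 2.94% of 6967 genes, and SERPINI1 and CNP were over 2-fold lower, 13.3%, against 4.05%. The median log2 ratio was -0.01, against 0.03 for all genes. This comparison shares the J3T-1 array and the J3T-2 array with the others. A second probe set was measured for all 3 of these genes and gave over 2-fold the same way for PHYHIPL and CNP, but a log2 ratio of -0.85 for SERPINI1. With the median of its probe sets, SERPINI1 had -0.77, and 2 members were over 2-fold. PHYHIPL, MAP2 and NCAM1 passed the limit only through J3T-1. NCAM1 was under the limit in J3T-2 by both probe sets. With signals under 250 set to 250, it was 1.41-fold higher in J3T-1 by the brightest and 1.25-fold by the second.

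**Figure D4:**
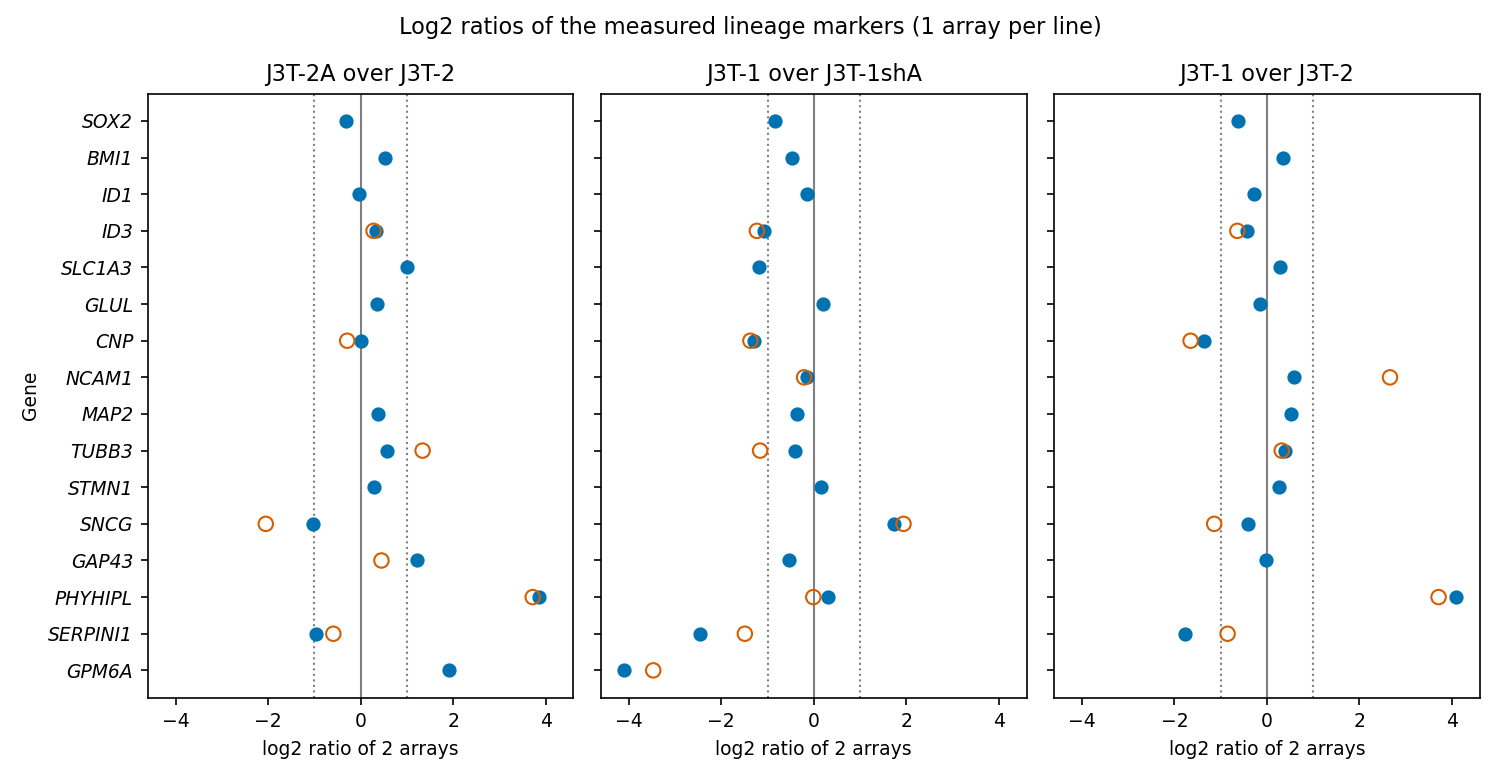
Log2 ratios between 2 arrays (x axis) of the 16 measured lineage markers for 3 pairs of lines, from left to right J3T-2A over J3T-2, then J3T-1 over J3T-1shA, then J3T-1 over J3T-2, with filled points for the brightest probe set and open circles for the second one where it reached 250. Dotted lines mark 2-fold; GPM6A lies at 1.92 in the first panel and at -4.11 in the second, and PHYHIPL at 3.85 in the first and 4.08 in the third.

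Across the 4 arrays, 9 of the 16 members measured on any array had their highest signal in J3T-1shA (56.2%, against 27.3% of 7241 genes). Their lowest signal was in J3T-1 for 7 members (43.8%, against 26.0%). The highest array exceeded the lowest by over 2-fold for 9 members (56.2%, against 16.8%), and for STMN1 and ID1 it was within 1.22-fold. In all 6 pairs of arrays, the median size of the log2 ratio was larger for these 16 members (0.43 to 0.70) than for all genes measured (0.20 to 0.30). It was largest for J3T-1shA over J3T-2. Of the 15 members measured in both manipulated pairs, 3 were over 2-fold in opposite directions (20.0%, against 1.05% of 6563 genes). These 3 genes were GPM6A, SLC1A3 and SNCG, and after quantile normalization GPM6A alone was over 2-fold in both pairs. Over 2-fold the same way in both were 0 members. The share of all genes that were so was not computed, so this 0 was not read as a trait of the members. These counts describe 1 array per line, on a list chosen with earlier results of these data known, and were not tested.

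Further genes of the same programs were counted from lists of each lineage. Of all genes, 39.0% reached the limit on all 4 arrays and 52.1% on none. Among all measured genes, 6600 of 6860 were within 2-fold in J3T-2A over J3T-2, and 6384 of 6944 in J3T-1 over J3T-1shA. The counts of the further lists and of the other cell types were not tested against these shares. GFAP, the intermediate filament that defines astrocytes, had 8.2 to 21.6. Of 16 further astrocyte genes with a probe set, 3 reached the limit on all 4 arrays and 3 on some. Those on all 4 were CLU (32410.1 to 36642.3), ALDOC (3603.9 to 6279.8) and GJA1 (694.7 to 1499.0). SPARCL1, a secreted matrix protein, was lower in J3T-1 (93.1) than in J3T-1shA (965.9), and so was ACSBG1, an acyl-CoA synthetase (78.7 against 1354.8). J3T-1shA was the one line over the limit for both genes. The gap junction gene GJA1 stayed just within 2-fold, with log2 ratios of -0.93 there and 0.99 in J3T-2A over J3T-2. NDRG2 was 2.36-fold lower in J3T-2A (215.1) than in J3T-2 (507.2).

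Of 16 further oligodendrocyte genes, 2 reached the limit on all 4 arrays, and none was over 2-fold in either manipulated pair among the 3 and 2 measured. PDGFRA, the growth factor receptor of oligodendrocyte progenitors, had 352.7 in J3T-2 and 286.5 in J3T-2A and was under the limit in J3T-1 and J3T-1shA (88.9 and 180.7). Of 28 further Notch genes, 8 reached the limit on all arrays and 3 on some. Those on all arrays included shared machinery, among them RBPJ, the DNA-binding partner of the receptors (1753.4 to 3272.7), the sheddase ADAM10 and gamma-secretase subunits. The 10 measured Notch genes were all within 2-fold in both manipulated pairs, as most of all measured genes were. Of 8 further ID and BMP response genes, 3 were measured. BAMBI, a BMP and TGF-beta pseudoreceptor, had 225.0 in J3T-1, 801.0 in J3T-1shA, 229.7 in J3T-2 and 666.6 in J3T-2A, so both modified lines were higher.

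Of 19 further stem and progenitor genes, 6 reached the limit on all arrays and 4 on some. NES, which encodes the progenitor filament nestin, had 345.9 in J3T-1shA and 94.9 to 150.2 elsewhere. In J3T-1 over J3T-1shA, NES, the SOX2 relative SOX3 (67.8 against 255.2) and the laminin receptor subunit ITGA6 (3097.5 against 13493.9) were over 2-fold lower. KLF4, a pluripotency factor, was higher (775.1 against 161.9), as was MYC (2.05-fold). In J3T-2A over J3T-2, KLF4 was 2.08-fold lower, and the other 7 measured were within 2-fold, as most of all measured genes were.

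Of 43 further neuronal genes, 10 reached the limit on all arrays and 5 on some, and 28 did not reach it. In J3T-1 over J3T-1shA, 15 were measured, and NRCAM, a neuronal adhesion molecule (360.6 against 1577.0), MAP1B (3921.9 against 8660.3), SYT11 and KIF1A were over 2-fold lower. UCHL1, KIF5C and ENO2 were over 2-fold higher, UCHL1 by 2.00-fold. In J3T-2A over J3T-2, the neurofilament gene NEFL was over 2-fold lower (6291.5 against 15463.4). The other 12 measured were within 2-fold, as most of all measured genes were.

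Markers of other cell types were set beside these values. Of 9 fibroblast and pericyte markers, 6 reached the limit on any array, and their summed signal over all 9 was 40041.9 in J3T-1, 82057.6 in J3T-1shA, 54733.3 in J3T-2 and 73638.3 in J3T-2A. In J3T-1 over J3T-1shA, all 6 measured ones had a log2 ratio below 0, with a median of -1.08, and in J3T-2A over J3T-2 the median of 5 was 0.22. ACTA2, the smooth muscle actin of pericytes and myofibroblasts, had 562.2 in J3T-1 and 13625.3 in J3T-1shA, but 24.9 in J3T-2 and 98.7 in J3T-2A. The collagen gene COL1A1 had 2013.8, 16841.9, 3798.8 and 11898.9, and DCN, a matrix proteoglycan, had 387.9, 1166.5, 1292.0 and 794.8. Both modified lines were thus the higher ones for COL1A1. COL3A1, PDGFRB and RGS5 stayed under the limit, with at most 176.3, 84.9 and 30.2. The largest terms of the summed signal were COL1A2 (21684.0 to 31252.5) and LUM (14940.1 to 29213.0). Between J3T-1 and J3T-1shA, however, the signals of COL1A1 and ACTA2 differed by more than those of COL1A2 and LUM. Of the 6 measured markers, only COL1A1 and COL1A2 had the order of the 4 arrays in this sum, and both are terms of it. Among the 16 measured members, GPM6A and ID3 had that order. Of the 48 measured further genes, it was that of 5, BAMBI, ACSBG1, QKI, SYT11 and NRCAM. It was also that of 6.55% of 7241 genes, and its part in the differences of the members was not tested. Of 8 endothelial markers, PECAM1 reached the limit in J3T-2 alone (773.2), and the others had at most 143.4. Of 8 microglia and macrophage markers, C1QA was measured (298.0 to 661.5), and the others, with PTPRC at 11.5 to 35.1, had at most 107.3. Of 5 epithelial markers with a probe set, KRT8 was measured (288.0 to 1076.3).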

How the data were processed

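Total RNA of 4 canine glioblastoma lines was hybridized by the authors to GeneChip Canine Genome 2.0 arrays, 1 per line. The deposited values are MAS 5.0 signal intensities on a linear scale, computed by the authors with default settings in single-array analyses and scaled globally. The stated target was 100, whereas trimmed means of the deposited columns (2% off each end) were 495.8 to 496.0. No detection calls were used here. Precision is limited by having 1 array per line.

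The array annotation listed 29693 of 42924 probe sets, 29254 with 1 gene symbol, 439 with several and 13231 not listed. Symbols were looked up by Entrez identifier in RefSeq for 27680 probe sets, which changed 0. Neither genome positions nor sequences were used.

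Ratios were taken between 2 arrays with Python 3.11.15 and pandas 2.3.3, without pseudocount, for genes with at least 250 on the higher array. A ratio over 2 counted as different. The script was tested on simulated data. Alternatives were limits of 125 (the lower) and 500 (the upper), no limit, the median of a gene's probe sets, quantile normalization, median centring and a pseudocount of 80; a floor of 250 and the second probe set were added after the data were seen. All 48 members are named by rule, and genes of the further lists where measured and over 2-fold in a manipulated pair (J3T-2A over J3T-2, or J3T-1 over J3T-1shA). GFAP, CLU, ALDOC, GJA1, PDGFRA, QKI, RBPJ, ADAM10 and single markers of other cell types were named after their values were seen. The members and lists were chosen with earlier results of these data known.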

Additional observations from a re-analysis of the deposited data

Results flagged for a closer look

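Among the members, 3 genes were over 2-fold in opposite directions in the manipulated pairs, and the difference between the pairs was not tested. On the log2 scale, GPM6A was at 1.92 in J3T-2A against J3T-2 and at -4.11 in J3T-1 against J3T-1shA. SLC1A3 had 1.0 and -1.18. SNCG had -1.03 and 1.74. In each of the 3 genes, both modified lines differed from their parental lines in one direction. After quantile normalization, SLC1A3 (0.98) and SNCG (-0.97) were within 2-fold in J3T-2A against J3T-2, as was SLC1A3 with the pseudocount (0.97), which left GPM6A alone and 2 genes, respectively. With signals under 250 set to 250, the second probe set of SNCG gave 2.78-fold and 1.26-fold in the same directions, and that of GPM6A 1.22-fold in J3T-1 against J3T-1shA.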

How the results depend on the processing

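For J3T-2A over J3T-2, the count of members over 2-fold changed from 5 to 12 with no filter on signal and to 3 with quantile normalization. With second probe sets, which were measured for 7 members, it was 3, namely PHYHIPL, SNCG and TUBB3. By the brightest probe set, 3 of these 7 members were over 2-fold, namely PHYHIPL, SNCG and GAP43. The median log2 ratio changed from 0.36 to 0.17 with the lower limit, 0.14 with no filter and 0.28 with second probe sets. For J3T-1 over J3T-1shA, the count changed from 6 to 12 with no filter, and the median from -0.44 to -0.14 with no filter, -0.56 with the median of the probe sets and -1.20 with second probe sets, of which 8 were measured. For J3T-1 over J3T-2, the count changed from 3 to 10 with no filter, and the median from -0.01 to -0.18 with the lower limit, -0.16 with the upper limit, -0.16 with the median of the probe sets and -0.64 with second probe sets. The 12 members at the limit on all arrays became 18 with the lower limit and 9 with the upper one. With no filter, dim genes enter by construction, and second probe sets cover fewer genes. The cause of the other changes was not tested. Where a member over 2-fold had a value under an alternative, its direction was the same. GPM6A in J3T-2A over J3T-2 had none with the median of the probe sets or the second probe set, and its dimmest probe set, under the limit, had -0.78. SLC1A3 had no second probe set. No paired analysis was possible because each line had 1 array, and no array could be left out for the same reason.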
